A study of Mus musculus with 2 samples.

Results

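Glycolysis, the handling of its products pyruvate and lactate, and the response to low oxygen are represented here by 37 genes in mouse bone marrow-derived macrophages (BMDMs), a primary culture of macrophages differentiated from marrow. The genes were taken by symbol from a list of transporters, enzymes, enzyme regulators and hypoxia-inducible genes, and all 37 were found among the 15576 genes of the deposited table, each as a single entry. The study compared 2 libraries of wild-type cells, with 1 library per group. The DCA library came from BMDMs exposed to 100 µM deoxycholic acid, a secondary bile acid made by gut bacteria, for 24 h, and the NC library came from BMDMs collected without it. The sources used here give neither the vehicle nor the mouse donors, and leave unclear whether the cells were collected at the end of the exposure or a day after it. Nothing below has a replicate check: each ratio is DCA over NC with a 95% counting interval, which compares these libraries and not the conditions.

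Glucose enters macrophages mainly through the transporter GLUT1, is trapped by hexokinases, and is split and oxidised to pyruvate in the cytosol. Lactate dehydrogenase then turns pyruvate into lactate, which monocarboxylate transporters carry across the plasma membrane together with a proton. Pyruvate dehydrogenase kinases hold pyruvate back from the citrate cycle. Many of these genes are targets of the transcription factor HIF1, whose alpha subunit is marked for destruction by prolyl hydroxylases when oxygen is present, and macrophages are known to use this programme during inflammatory activation.

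Most of the genes lay close together in the 2 libraries, and 3 stood out. The transcript of the monocarboxylate transporter Slc16a7 was at less of its NC level than any other member, with a ratio of 0.446, while the hypoxia-inducible genes Egln3 and Ankrd37 were higher in DCA, with ratios of 1.23 and 1.38. Of the 37 members, 35 had a mean FPKM (reads per kilobase of gene for each 1e6 reads) of at least 1 and were set against the limits below. Genes at that level are called tested, although no test across samples was possible. P4ha2 and Adm did not reach that level. Among the 35, 18 were higher and 17 lower in DCA, against 53.5% of all 9656 genes at that level that were higher. Their median difference in log2(FPKM + 1) was 0.0020, and that of all tested genes was 0.0067. The ratios of 31 of the 35 (88.6%) lay between 0.9 and 1.1, as did those of 79.9% of all tested genes.

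On the log2(FPKM + 1) scale, where ratios of weakly expressed genes shrink, 2 members were at least 1.2-fold higher, where 2.11% of all tested genes were, and 1 was at least 1.2-fold lower, where 0.715% were. The counting interval excluded equality on the higher side for 11 of the 35 (31.4%) against 25.7% of the 9644 tested genes with an annotated length, and on the lower side for 8 (22.9%) against 20.0%. With each library rescaled to a sum of 1e6 these counts were 8 higher and 11 lower, and with scaling by the median of ratios 9 and 10, so which side holds more members depends on the scaling. Egln3 and Ankrd37, at 0.27 each on the log2(FPKM + 1) scale, sit just past the 1.2-fold limit: neither passed it with a pseudocount of 5 (0.19 and 0.10), and Egln3 (0.26) did not when the libraries were scaled by their median of ratios.

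**Figure D1:**
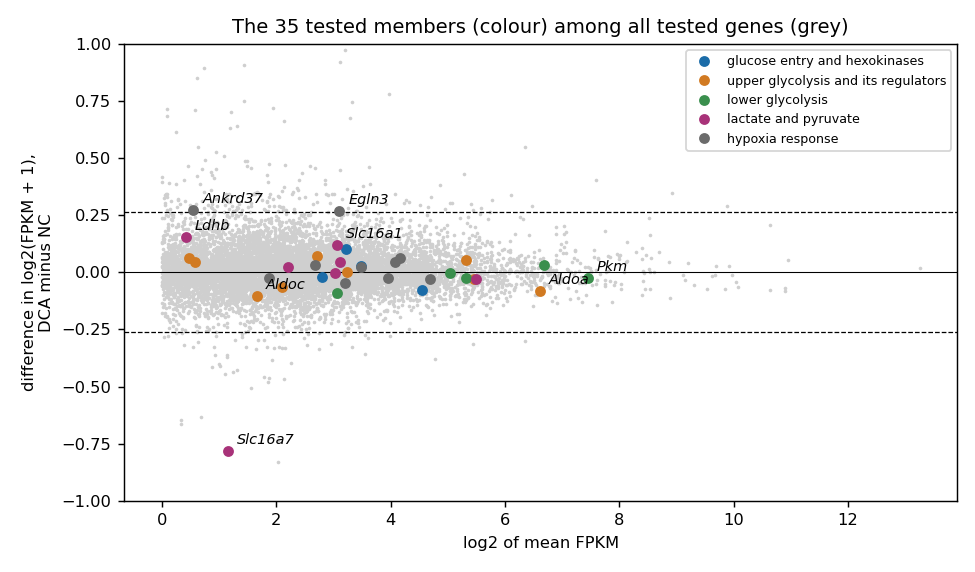
Difference in log2(FPKM + 1) between the DCA and NC libraries (vertical) against the log2 of the mean FPKM (horizontal) for all 9656 tested genes in grey and the 35 tested members in colour by role; dashed lines mark a 1.2-fold difference, and 24 genes at least 2-fold apart lie outside or on the frame. Slc16a7 lies far below the lower line, Egln3 and Ankrd37 just above the upper line, and the other members between the lines.

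The identity of the cells and the makeup of the cultures were read from marker genes. The 15 macrophage markers summed to 2753 FPKM in DCA and 2898 in NC, and 13 of them were lower in DCA, Lpl and C1qa the most, with ratios of 0.811 (0.802 to 0.820) and 0.896 (0.853 to 0.942). Neutrophil markers were higher in DCA in 18 of 18, with sums of 4445 and 3771 FPKM. Of 15 lymphocyte markers, the 10 tested were all higher, with sums of 186.6 and 149.9 FPKM over the list. Eosinophil markers were higher in all 5 tested of 7, with sums of 110.4 and 75.8 FPKM, dendritic cell markers in 5 of 6 tested, with sums of 68.8 and 60.2, and mast cell and basophil markers in 7 of 8, with sums of 62.0 and 55.9. The genes that led these lists were Retnlg and Ly6g, Blk and Cd79a, Epx and Prg2, Ccr7 and Siglech, and Hdc and Mcpt8, with ratios from 1.25 to 1.90. On the other side in these lists, Itgam (79.0 and 78.5 FPKM) and Cd68 (389.2 and 388.6) were the macrophage markers higher in DCA. Cd209a (5.62 and 5.97) and Kit (2.39 and 2.51) were the tested dendritic and mast cell markers lower in DCA. Below the level tested, Batf3 (dendritic) and Igll1 (lymphocyte) were lower, at 0.503 (0.333 to 0.750) and 0.488 (0.317 to 0.739). Vpreb1 (lymphocyte) and Siglecf (eosinophil) were higher there, at 2.01 (1.21 to 3.40) and 1.78 (1.52 to 2.08). The lymphocyte markers Cd3d and Cd3g had 14 and 17 reads in DCA and 0 in NC. Cd3e, of the same list, lay the other way with 7 reads in DCA and 16 in NC, for a ratio of 0.458 (0.159 to 1.18). Of 8 osteoclast markers, 3 of 4 tested were higher (Mmp9, Nfatc1 and Acp5), and Ctsk was lower at 11.4 against 12.98 FPKM. Below the level tested, Dcstamp and Ocstamp were lower, at 0.635 (0.410 to 0.971) and 0.523 (0.268 to 0.982). Their reads were few, 37 and 16 in DCA and 61 and 32 in NC. Calcr and Oscar were listed at 0 in both libraries. The osteoclast sums were 108.8 FPKM in DCA and 100.3 in NC, and without Mmp9, which the neutrophil list also holds, they were 18.2 and 19.6, lower in DCA. No erythroid or stromal marker reached a mean of 1 FPKM, and the stromal genes Dcn and Pdgfra were listed at 0 in both. The sums compare the libraries within a list and not 1 list with another, because the deposited FPKM cannot compare different genes, as set out below. Single genes also hold much of them. In DCA, Ctsb held 1542 FPKM of the macrophage sum, and S100a9 and S100a8 held 1699 and 1043 of the neutrophil sum. More or fewer cells of a type cannot be told apart from more or less RNA per cell, and the part of these cell types in the values below was not tested.

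Hypoxia-inducible promoters often carry the core motif of the HIF response element. The promoters of 4 members are printed to show that motif in the tested hypoxia genes with the widest differences (Egln3 and Ankrd37) and in 2 HIF target genes whose ratios were near 1 (Ldha and Bnip3). The sequences are RefSeq's for GRCm38.p6, 5′ to 3′ on the gene's strand, from 250 bases before to 50 bases after an annotated start. Capitals mark ACGTG and GCGTG on the strand shown, and CACGT and CACGC, which are the same motifs on the other strand. Where CACGTG occurs, the matches on both strands overlap.
Egln3 (chr12:54203825-54204124, minus strand): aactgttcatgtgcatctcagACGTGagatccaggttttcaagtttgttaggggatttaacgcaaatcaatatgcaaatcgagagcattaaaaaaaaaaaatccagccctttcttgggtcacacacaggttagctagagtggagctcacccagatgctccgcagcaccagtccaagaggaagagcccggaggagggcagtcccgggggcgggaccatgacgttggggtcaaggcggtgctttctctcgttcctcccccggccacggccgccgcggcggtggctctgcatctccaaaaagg
Ankrd37 (chr8:45999801-46000100, minus strand): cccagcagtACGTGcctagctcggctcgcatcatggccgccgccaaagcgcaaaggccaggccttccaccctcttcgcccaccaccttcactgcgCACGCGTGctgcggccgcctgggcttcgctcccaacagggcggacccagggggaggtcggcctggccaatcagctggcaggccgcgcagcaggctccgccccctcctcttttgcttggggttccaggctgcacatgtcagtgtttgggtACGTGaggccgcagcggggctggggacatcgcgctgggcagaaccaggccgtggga
Ldha (chr7:46845554-46845853, plus strand): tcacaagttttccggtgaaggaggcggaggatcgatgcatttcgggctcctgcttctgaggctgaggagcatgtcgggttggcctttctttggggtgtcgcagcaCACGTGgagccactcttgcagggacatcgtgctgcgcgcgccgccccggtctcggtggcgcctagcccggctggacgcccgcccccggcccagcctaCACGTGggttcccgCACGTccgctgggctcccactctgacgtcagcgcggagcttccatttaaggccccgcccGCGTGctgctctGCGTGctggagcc
Bnip3 (chr7:138909457-138909756, minus strand): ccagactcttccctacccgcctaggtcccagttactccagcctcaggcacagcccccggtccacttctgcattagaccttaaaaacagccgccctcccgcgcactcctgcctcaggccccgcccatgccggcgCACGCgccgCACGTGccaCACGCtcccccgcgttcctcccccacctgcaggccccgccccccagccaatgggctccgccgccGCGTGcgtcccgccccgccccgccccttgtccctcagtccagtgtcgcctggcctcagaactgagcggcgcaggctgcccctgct

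The Egln3 window held 1 match, that of Ankrd37 4, that of Bnip3 5 and the Ldha window shown 7, counted on both strands, while the ratios of these genes were 1.23, 1.38, 0.964 and 0.980. A second annotated start of Ldha has a window with 2 matches, which is not shown. Among the 49 promoter windows listed for 34 members, 41 (83.7%) held at least 1 match, compared with 63.1% of the 9793 windows of tested genes and 43.8% of all 32851 windows. Slc16a7, Bnip3l and Ndrg1 had no window in the table. A match of 5 letters is a description of the window and says nothing of binding in these cells.

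Levels of different genes are compared below as reads per kilobase of merged annotated exons for each 1e6 reads, called exon RPKM here. The deposited FPKM cannot serve for this, because it came out in whole reads when the length of a gene was taken as the sum of all its annotated transcripts. On the exon scale the most abundant members in NC were Aldoa, Pkm, Ldha, Pgam1 and Hk3, from 431 down to 109.4 exon RPKM. The lowest were Adm at 0.094, P4ha2 at 1.25, Ldhb at 2.62 and Ankrd37 at 3.38 exon RPKM in NC. These ranks depend on the length used. Divided by the longest transcript instead, the highest in NC were Pkm, Aldoa, Ldha, Eno1 and Pgam1, from 880 down to 171, and Hk3 was at 125. Adm, P4ha2 and Ldhb were again the lowest, and Pfkm, at 4.93, lay below Ankrd37, at 5.61.

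**Figure D2:**
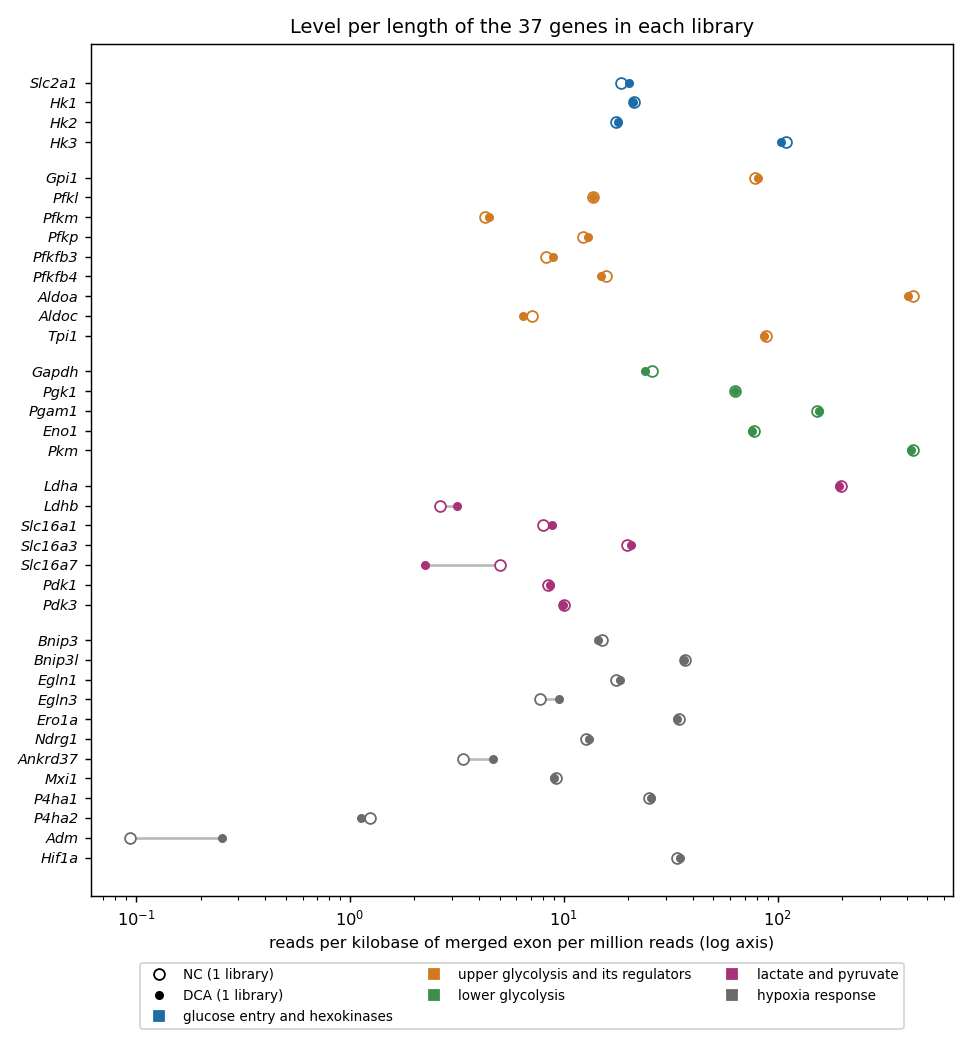
Level of each of the 37 genes in reads per kilobase of merged exon for each 1e6 reads (log axis) in the NC library (open circle) and the DCA library (filled circle), grouped by role. The circles of most genes nearly coincide; those of Slc16a7 (5.01 in NC and 2.24 in DCA) and of Adm, the lowest member, are the most widely separated.

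Transcripts for glucose entry and phosphorylation differed little. Slc2a1, which encodes the glucose transporter GLUT1 (ENSMUSG00000028645, GRCm38 chromosome 4, 119108711 to 119137983, plus strand), stood at 9.69 FPKM in DCA against 8.94 in NC (3981 and 3847 reads), for a ratio of 1.08 (1.04 to 1.132). Hexokinases add the phosphate that keeps glucose in the cell. Hk3, the hexokinase of myeloid cells, stood at 22.8 FPKM in DCA against 24.2 in NC, for a ratio of 0.945 (0.928 to 0.963). The intervals of Hk1 at 0.983 (0.957 to 1.01) and Hk2 at 1.02 (0.986 to 1.06), the latter an isozyme induced by HIF1, included equality. Per length, Hk3 made up 72.7% of the 3 hexokinase transcripts in DCA and 73.8% in NC. Hk1 made up 14.7% and 14.4%, and Hk2 12.6% and 11.8%. Their summed exon RPKM was 142.3 in DCA and 148.2 in NC.

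Upper glycolysis held members on both sides. Gpi1, which converts glucose-6-phosphate to fructose-6-phosphate, stood at 40.5 FPKM in DCA against 39.0 in NC, for a ratio of 1.04 (1.02 to 1.06). Phosphofructokinase commits the sugar to glycolysis and is built from the subunits encoded by Pfkl, Pfkm and Pfkp. The platelet-type Pfkp had a ratio of 1.06 (1.03 to 1.09), from 9865 reads in DCA and 9747 in NC. Pfkl, the liver-type subunit, was level at 1.002 (0.964 to 1.04), and the muscle-type Pfkm was at 1.05 (0.955 to 1.16). Per length, Pfkl and Pfkp made up 44.0% and 41.7% of the family in DCA and 45.3% and 40.6% in NC, and Pfkm 14.3% and 14.1%.

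The bifunctional enzymes encoded by Pfkfb3 and Pfkfb4 set the level of fructose-2,6-bisphosphate, the activator of phosphofructokinase. They lay on opposite sides of equality. Pfkfb3 stood at 1.44 FPKM in DCA against 1.34 in NC, for a ratio of 1.08 (1.03 to 1.130), and Pfkfb4 had 4.18 and 4.41, for a ratio of 0.948 (0.908 to 0.989). Their sum per length was nearly the same in both libraries, at 23.7 exon RPKM in DCA and 23.9 in NC, and the share of Pfkfb3 in it was 37.4% and 34.4%.

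Aldolase cleaves fructose-1,6-bisphosphate into triose phosphates, and both of its members were lower in DCA. Aldoa (ENSMUSG00000030695, chromosome 7, 126795234 to 126800751, minus strand) stood at 95.1 FPKM in DCA against 100.8 in NC (66968 and 74255 reads), for a ratio of 0.944 (0.934 to 0.954). Aldoc stood at 3.03 FPKM in DCA against 3.33 in NC, for a ratio of 0.910 (0.841 to 0.984), and made up under 2% of the aldolase sum. Tpi1, which interconverts the trioses, was at 0.978 (0.955 to 1.002). Its deposited values did not come out as whole reads, so its reads, and hence its interval, are approximate.

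In lower glycolysis 4 of 5 members were lower in DCA, by small amounts, with a median ratio of 0.984. Pkm, pyruvate kinase (ENSMUSG00000032294, chromosome 9, 59656368 to 59679375, plus strand), stood at 173.7 FPKM in DCA against 176.9 in NC, and its 118886 and 126691 reads gave a narrow interval around a ratio of 0.982 (0.974 to 0.990). Gapdh, the glyceraldehyde-3-phosphate dehydrogenase often used as a reference gene, stood at 8.07 FPKM in DCA against 8.66 in NC, for a ratio of 0.931 (0.898 to 0.966). Pgk1, phosphoglycerate kinase, was at 0.999 (0.968 to 1.03) and the enolase gene Eno1 at 0.984 (0.967 to 1.002). Pgam1, phosphoglycerate mutase, was the member on the higher side, at 1.02 (1.002 to 1.04).

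Reads of several members, abundant and weakly expressed, are uncertain, because parts of their sequence also occur at other loci, among them processed pseudogenes. Of the distinct 50-base stretches of Pgk1 transcripts, 53.9% also occur in annotated transcripts of other loci. The shares were 36.9% for Bnip3, 36.2% for Pgam1, 26.0% for Eno1, 24.7% for Gapdh, 21.0% for Ldhb, 20.8% for Bnip3l and 14.2% for Pkm, and below 10% for every other member. Gapdh shares such stretches with 213 annotated pseudogenes and measured 24.0 exon RPKM in DCA and 25.8 in NC, a lower level than its neighbours in the pathway Aldoa, at 407 and 431, and Pgk1, at 63.1 and 63.2. Eno1b, a protein-coding copy of Eno1, held 17511 reads in DCA against 18855 in NC, for a ratio of 0.972 (0.952 to 0.992). Summed over Eno1 and Eno1b the ratio was 0.979 (0.966 to 0.992), an interval that excluded equality where that of Eno1 alone included it. Exons of 16 members also overlap those of another gene on either strand. The overlap was over 10% of exonic bases for 5 of them: Ankrd37 (26.4%), Bnip3 (22.3%), Pkm (15.3%), Gpi1 (11.5%) and Pfkm (10.7%).

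Lactate and pyruvate genes held the widest spread of ratios among the tested members. Ldha, which encodes the lactate dehydrogenase subunit that favours lactate formation, stood at 44.5 FPKM in DCA against 45.4 in NC (36299 and 38760 reads), for a ratio of 0.980 (0.966 to 0.994). Ldhb, the subunit of lactate-using tissues such as heart, stood at 1.47 FPKM in DCA against 1.21 in NC, for a ratio of 1.21 (1.01 to 1.44). That ratio rests on about 281 and 244 reads, which did not come out whole, so its interval is approximate. The interval of Ldhb is among the 11 counted on the higher side. Per length, Ldha made up 98.4% of the pair in DCA and 98.7% in NC.

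Slc16a7 encodes MCT2, a monocarboxylate transporter with a high affinity for pyruvate and lactate (ENSMUSG00000020102, chromosome 10, 125219270 to 125389465, minus strand). It stood at 1.38 FPKM in DCA against 3.09 in NC (1497 and 3512 reads). Its ratio was 0.446 (0.420 to 0.474), and on the log2(FPKM + 1) scale it was lower by 1.72-fold, with 10 of the 9656 tested genes lower still. Of its 11839 exonic bases, 1.51% overlap an unconfirmed transcript on the other strand, Gm47862, which has no value here. Only 0.244% of its 50-base stretches occur elsewhere.

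The other lactate transporters did not share this difference. Slc16a1, which encodes MCT1 (ENSMUSG00000032902, chromosome 3, 104638668 to 104658462, plus strand), stood at 8.78 FPKM in DCA against 7.999 in NC, for a ratio of 1.098 (1.03 to 1.17). Slc16a3, which encodes the lactate exporter MCT4, had 8.83 and 8.51, for a ratio of 1.04 (1.001 to 1.07). Per length, Slc16a7 made up 7.09% of the 3 transporters in DCA and 15.3% in NC, Slc16a1 27.8% and 24.4%, and Slc16a3 65.1% and 60.3%. As a share of reads alone, Slc16a7 held 15.2% in DCA (exact 95% interval 14.5 to 15.9) and 29.7% in NC (28.8 to 30.5). The sum of the 3 per length was 31.5 exon RPKM in DCA and 32.8 in NC.

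The wider Slc16a family, looked at after the value of Slc16a7 was seen, had 14 genes in the table and 6 tested. Among the 3 that are not members, Slc16a6 and Slc16a10 had ratios of 0.951 (0.919 to 0.985) and 0.965 (0.931 to 1.001). Slc16a13 was at 0.803 (0.714 to 0.902), from 513 and 669 reads. Below the level tested, Slc16a9 held 73 reads in DCA against 40 in NC, for a ratio of 1.91 (1.28 to 2.88). Bsg and Emb, whose products are ancillary proteins that bring these transporters to the membrane, were at 0.956 (0.930 to 0.982) and 1.005 (0.989 to 1.02).

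**Figure D3:**
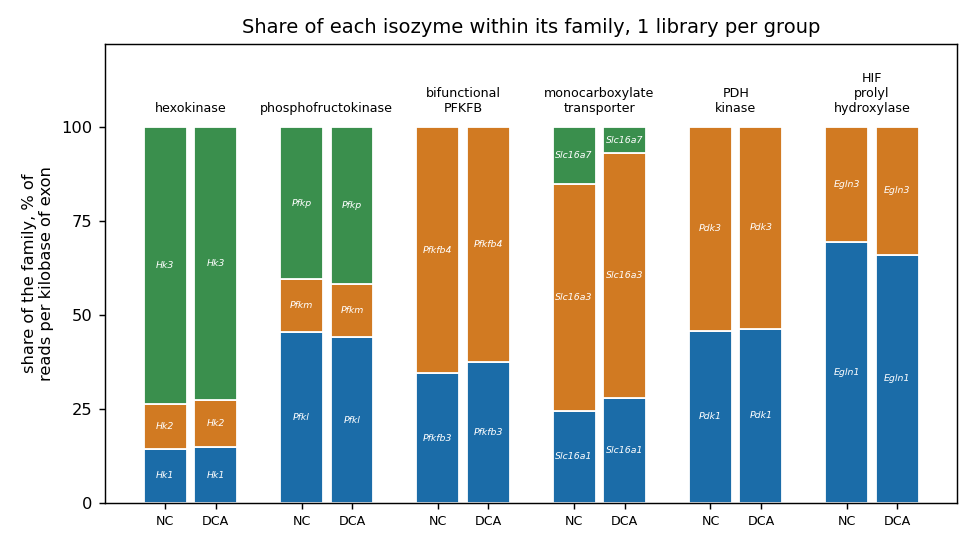
Share of each gene in its family (percent of reads per kilobase of merged exon, stacked to 100) in the NC and DCA libraries for 6 families. The share of Slc16a7 among the transporters is 15.3% in NC and 7.09% in DCA. Shares of the hexokinases, the phosphofructokinases and the pyruvate dehydrogenase kinases Pdk1 and Pdk3 differ by under 2 percentage points.

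Of the pyruvate dehydrogenase kinases, which switch off entry of pyruvate into the citrate cycle, the members Pdk1 and Pdk3 were level. Pdk1, a HIF1 target, stood at 4.64 FPKM in DCA against 4.55 in NC, for a ratio of 1.02 (0.974 to 1.07), and Pdk3 had 8.18 and 8.20, for a ratio of 0.998 (0.928 to 1.07). The kinase gene Pdk2, not a member, was at 1.085 (0.945 to 1.25), and Pdk4 has no value here. Among the genes of the complex these kinases act on, picked out after their values were seen, Pdhx was at 0.823 (0.762 to 0.890), Pdhb at 0.919 (0.880 to 0.959) and Dlat at 0.926 (0.885 to 0.968). Pdha1 was at 0.989 (0.959 to 1.02), and Dld, whose product also serves other complexes, lay the other way at 1.05 (1.02 to 1.09).

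The hypoxia response group had 10 tested members of 12, of which 6 were higher and 4 lower, with a median ratio of 1.02. Its counting intervals excluded equality for 3 members (30.0%) on the higher side, against 25.7% of all tested genes, and for none on the lower, against 20.0%. Egln3 (ENSMUSG00000035105, chromosome 12, 54178981 to 54203860, minus strand), a prolyl hydroxylase that marks HIF alpha subunits and is itself induced by hypoxia, stood at 9.50 FPKM in DCA against 7.71 in NC. Its 1430 and 1215 reads gave a ratio of 1.23 (1.14 to 1.33), and 193 tested genes had a higher difference. The related Egln1, the main oxygen sensor of this family, stood at 18.3 FPKM in DCA against 17.5 in NC, for a ratio of 1.05 (0.9999 to 1.095). Egln3 made up 34.1% of the pair per length in DCA and 30.6% in NC.

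Ankrd37, which encodes an ankyrin repeat protein and is a HIF1 target (ENSMUSG00000050914, chromosome 8, 45996902 to 46005707, minus strand), stood at 1.70 FPKM in DCA against 1.23 in NC. Its 405 and 308 reads gave a ratio of 1.38 (1.18 to 1.60), and 188 tested genes had a higher difference. Of its exonic bases 26.4% overlap the genes Lrp2bp and Ufsp2 on the opposite strand, so its reads are less certain. Those genes had 13 and 3709 reads in DCA and 19 and 3723 in NC.

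Hif1a, the oxygen-regulated subunit of HIF1, stood at 17.1 FPKM in DCA against 16.6 in NC, for a ratio of 1.03 (1.01 to 1.06). HIF activity is set mainly at the protein level, which was not measured. The intervals of the other tested hypoxia genes included equality. Bnip3 and Bnip3l, mitophagy receptors of the outer mitochondrial membrane, were at 0.964 (0.904 to 1.03) and 0.981 (0.952 to 1.01). Ero1a, an oxidase of disulfide formation, was at 0.980 (0.954 to 1.01), Ndrg1 at 1.03 (0.986 to 1.07), and the MYC antagonist Mxi1 at 0.979 (0.934 to 1.03). P4ha1, a collagen prolyl hydroxylase subunit, was at 1.02 (0.982 to 1.05).

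Both members below the level tested had a low FPKM, and of these only Adm had few reads. P4ha2, the other collagen prolyl hydroxylase subunit, stood at 0.399 FPKM in DCA against 0.442 in NC. Its 396 and 460 reads gave a ratio of 0.901 (0.786 to 1.03). Adm, which encodes the vasodilator peptide adrenomedullin and is a HIF1 target, stood at 0.230 FPKM in DCA against 0.086 in NC. Its 23 and 9 reads gave a ratio of 2.67 (1.19 to 6.57).

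**Figure D4:**
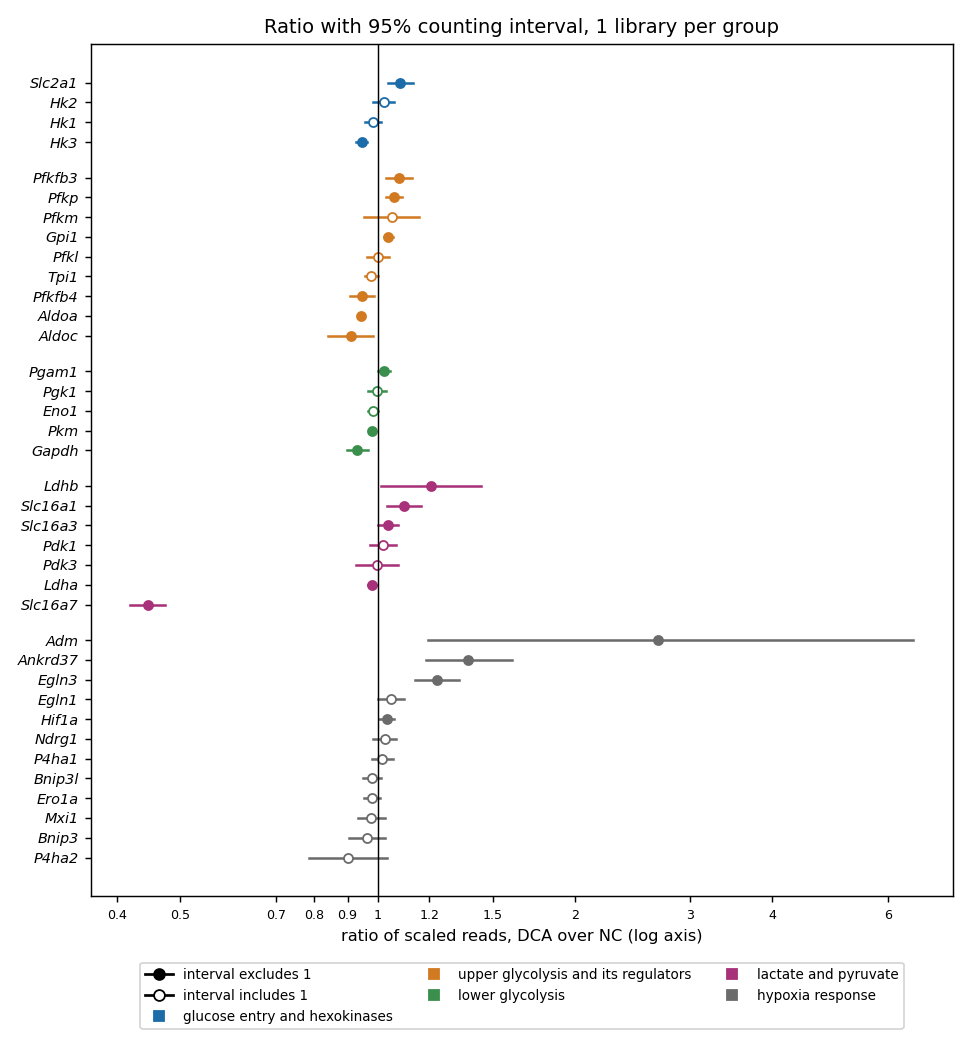
Ratio of scaled reads, DCA over NC (log axis), with its 95% counting interval for each of the 37 genes. Genes are grouped by role and ordered by ratio, and filled points mark intervals that exclude 1. The intervals of Tpi1 and Ldhb are approximate, because their reads did not come out whole. Slc16a7 stands at 0.446, left of every other gene, and Egln3, Ankrd37 and the sparsely counted Adm stand furthest to the right in the hypoxia group.

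Other genes of the same pathways, come from lists that hold none of the members. Among further hypoxia-response genes, 10 of the 30 tested (33.3%) were higher and 20 lower, against 53.5% of all tested genes that were higher. Their median ratio was 0.979. The interval excluded equality on the higher side for 5 (16.7%), against 25.7% of all tested genes, and on the lower side for 9 (30.0%), against 20.0%. Ddit4, a stress-induced inhibitor of mTORC1, stood at 7.54 FPKM in DCA against 5.22 in NC, for a ratio of 1.45 (1.29 to 1.62). Vegfa, the vascular growth factor, had 8.80 and 7.63, for a ratio of 1.15 (1.12 to 1.19). On the lower side, Epas1, which encodes the alpha subunit of HIF2, was at 0.733 (0.640 to 0.839) and Jmjd6 at 0.882 (0.829 to 0.938). Rora, a nuclear receptor gene below the level tested and picked out after its values were seen, stood at 0.786 FPKM in DCA against 0.170 in NC, for a ratio of 4.63 (3.91 to 5.51). The prolyl hydroxylase Egln2, the asparagine hydroxylase Hif1an and Vhl, which recognises hydroxylated HIF, were at 0.968 (0.920 to 1.02), 0.927 (0.884 to 0.972) and 0.926 (0.872 to 0.983).

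Among further glycolysis and pyruvate genes, 12 of the 24 tested were higher and 12 lower, with a median ratio of 0.998 and intervals that excluded equality for 7 and 6. Slc2a3, which encodes the glucose transporter GLUT3, stood at 14.2 FPKM in DCA against 12.3 in NC, for a ratio of 1.16 (1.128 to 1.19). Pgam2, the muscle isozyme of Pgam1, was at 1.31 (1.10 to 1.57). Tigar, a phosphatase of fructose-2,6-bisphosphate, and Pdhx gave the lowest differences, Tigar at a ratio of 0.880 (0.815 to 0.951). In the pentose phosphate pathway, which branches from glucose-6-phosphate to make NADPH and ribose, 7 of 8 genes were lower. The median ratio of the 8 was 0.978. The interval excluded equality on the lower side for 3 (37.5%), against 20.0% of all tested genes. On the higher side it did so for none, against 25.7%. Rpe and Taldo1 were at 0.932 (0.895 to 0.969) and 0.974 (0.957 to 0.991), and Pgls was the member on the higher side, at 1.05 (0.999 to 1.09).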

How the data were processed

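RNA was sequenced from 1 DCA and 1 NC library, which were placed in their groups by the treatment label, and the table's columns were matched to them by name. The authors deposited FPKM per gene. The submitters' processing notes name the build GRCm38 and, with no role or order, the tools HTSeq 0.6.0, DESeq2 3.0, STAR 2.5.0c, bedtools 2.17.0 and Picard 1.126. Neither the length behind the FPKM nor the strand setting is stated there. Lengths, coordinates and exon overlaps (either strand) came from GENCODE vM21.

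With summed transcript lengths, 96.4% of 11791 genes below 5000 reads had whole reads in the DCA and NC libraries (tolerance 0.05 reads), which gives totals of 56.6 x 1e6 (DCA) and 59.2 x 1e6 (NC) reads. Of the members, 35 came out whole and 2 (Tpi1, Ldhb) did not. Ratios of these reads, scaled to the totals, carry exact Clopper-Pearson intervals, which cover counting error only, since PCR copies are not independent molecules. The intervals of Tpi1 and Ldhb are approximate. Differences are in log2(FPKM + 1), the pseudocount being 1. A gene was tested, meaning set against the 1.2-fold limit, at a mean FPKM of at least 1. With 1 library per group no p-value was computed. Lengths for exon RPKM are merged exons. Copies were sought as 50-base stretches shared with transcripts of loci that do not overlap the gene.

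The members, the lists and the limits were chosen with earlier results of these data known. Every member is named; of each other list, up to 2 tested genes in each direction with the largest difference. Any other gene was picked with its values in view. The recovery of totals, limits and intervals was tested on simulated data that had counting error only and the same gene lengths. That test cannot show how wrong lengths, PCR copies or variation between cultures affect them. Python 3.11.15, numpy 2.4.6, pandas 2.3.3 and scipy 1.17.1 were used.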

Additional observations from a re-analysis of the deposited data

How the results depend on the processing

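No paired analysis was possible because each group has 1 library. Leaving out a replicate was not possible for the same reason. The median difference over the members changed sign with scaling, from 0.0020 to -0.011 with each library rescaled to 1e6 and -0.0056 with the median of ratios. With those scalings, the medians also changed sign for glucose entry and hexokinases, to -0.010 and -0.0042, and for upper glycolysis, to -0.011 and -0.0056. Without members with overlapping exons the upper glycolysis median was -0.030. Single members kept their direction under the pseudocounts and scalings tried, except Pfkl, which changed sign under both scalings. At least 1.2-fold higher were 0 members with a pseudocount of 5, 1 at a mean FPKM of at least 5, 1 with the median of ratios and 1 without members with overlapping exons. At least 1.2-fold lower were 0 at a mean FPKM of at least 5, where Slc16a7 is not tested, and 0 without the overlapping members, which leaves out Slc16a7. Intervals below equality numbered 5 at a mean FPKM of at least 5, and intervals above it 7 at a level of 99%. Without the overlapping members, 11 members were higher and 8 lower, with intervals that excluded equality for 6 and 3. Without the members with copies elsewhere, an alternative added after the data were seen, 16 were higher and 11 lower. The median difference was then 0.023. Family shares depend on the length used. With the longest transcript and with reads alone, Hk3 held 65.9% and 57.1% in DCA and 67.0% and 58.4% in NC, Pfkl 49.3% and 32.6% in DCA and 50.7% and 33.8% in NC, and Ldha 98.9% and 99.2% in DCA and 99.1% and 99.4% in NC. Slc16a7 held 15.2% of reads in DCA and 29.7% in NC, and 14.3% in NC with the longest transcript. Of 109 values recomputed for the summary results, 74 moved by less than the limits set for a change, 28 moved further and 7 changed sign.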
